A study of Mus musculus with 27 samples.

Results

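Caveolae are small flask-shaped pits of the plasma membrane, most abundant in endothelial cells, adipocytes and muscle. Caveolins are the integral membrane proteins of their coat, and cavins are cytosolic proteins that assemble on the caveolins and stabilise the pit. The data here cover the 3 caveolin genes (Cav1, Cav2, Cav3), 3 of the cavin genes (Cavin1, Cavin2, Cavin3) and Gm15581, a long noncoding RNA transcribed from the strand opposite to Cav1. They were taken by symbol as 7 of the 55416 genes of the read-count table, together with their 3 junctions among the 55670 distinct junctions of the splice table. Of these junctions, 2 belong to Cav1 and 1 to Cavin1. The splice table holds none for Cav2, Cav3, Cavin2, Cavin3 and Gm15581, so their gene reads have no junction reads beside them. Cav1 and Cav2 proteins form mixed oligomers, and Cav1 is needed for caveolae outside muscle, where Cav3 takes this role. In the brain, Cav1 is known mainly from the vascular endothelium.

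RNA was sequenced from the whole fetal brain of 3 mouse strains on d12, d15 and d17 of gestation, with 3 female libraries in each of the 9 groups. AKR/J is an inbred strain, C57BL/6J is an inbred strain that served as the long-lived reference, and Cav1-null is B6.Cg-Cav1tm1Mls/J, a congenic line on C57BL/6J that carries a disrupted Cav1. No sample was treated with an agent, and the mutation was in the germ line, so that every cell of the embryo carried it. A congenic line also carries DNA of the donor strain around the mutation, so that effects of the disrupted gene and of its flanking DNA cannot be told apart here. Nothing in the labels says whether fetuses of a group shared a litter, so p-values measure only the spread between these samples. Levels are in CPM (read counts scaled to a fixed library total after TMM scaling), as the value of each library or as mean ± SD (n = 3). Groups of 3 libraries are said not to overlap when their ranges of CPM lie apart. The share of all genes without overlap was counted only for strains over the 3 days. Non-overlap between groups of 3 libraries is thus a description without a background.

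The libraries held 26363697 to 39759702 gene reads. All 12 markers of neural tissue on the list used here were detected in every group. The tissue also held blood vessels and adjoining tissues, and 24 of the 27 libraries correlated best with their own group. The 3 exceptions were C57BL/6J libraries (replicate 3 of d12 and replicates 2 and 3 of d17), and replicate 2 of d17 correlated at a median of 0.966 with its own group and at 0.992 with Cav1-null d17. The AKR/J d12 libraries were rich in erythroid genes, with a summed level of 34320 to 201700 CPM against 566 to 18210 CPM in the other groups. Skeletal muscle markers were highest in AKR/J d15 replicate 2, C57BL/6J d15 replicate 1 and Cav1-null d12 replicate 3. These libraries are given below wherever a result rests on them.

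Cav1 (ENSMUSG00000007655; chr6:17306140-17341451 on GRCm39, plus strand) has 3 exons in its main transcript. Because 2 of the junctions come from this gene, the spliced bases that their reads must cross are shown, with the upstream exon in lower case and the downstream exon in capitals. The first intron runs from chr6:17306479-17307879 and the second from chr6:17308045-17339111.
Cav1 exon 1 to exon 2: tacgtagactccgagGGACATCTCTACACT
Cav1 exon 2 to exon 3: gacgacgtggtcaagATTGACTTTGAAGAT
Exon 2 lies between them at chr6:17307880-17308044 and was 165 bases long. It is shown because a read that crosses either junction ends or starts in it.
Cav1 exon 2: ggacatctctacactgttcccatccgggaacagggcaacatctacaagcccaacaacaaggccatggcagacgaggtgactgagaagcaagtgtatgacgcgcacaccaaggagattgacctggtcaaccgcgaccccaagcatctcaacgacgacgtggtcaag

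Cav2 (ENSMUSG00000000058; chr6:17281026-17289877, plus strand) ends 16262 bases before Cav1. Gm15581 (ENSMUSG00000085264; chr6:17206822-17385603, minus strand) spans both. Its transcript Gm15581-202 starts at position 17281114, inside the Cav2 gene and 70 bases before the start of the main Cav2 transcript, and shares 89 exonic bases with the longest first exon of Cav2, whereas no exon of Gm15581 overlaps an exon of Cav1. Another of its transcripts starts 44152 bases beyond the end of Cav1. The sources used here do not state whether reads were counted by strand, so reads in the shared bases of Cav2 and Gm15581 cannot be assigned with certainty. The 250 bases before the annotated Cav2 start (chr6:17280776-17281025, plus strand) are shown because Gm15581 reaches into them from the opposite strand. Capitals mark the last 32 bases, which lie in exon 1 of Gm15581-202, and the first 23 bases, in lower case, lie in exon 1 of the third Gm15581 transcript, which starts at position 17280798. They hold 47.2% G and C and 2 CG dinucleotides.
Cav2 upstream bases: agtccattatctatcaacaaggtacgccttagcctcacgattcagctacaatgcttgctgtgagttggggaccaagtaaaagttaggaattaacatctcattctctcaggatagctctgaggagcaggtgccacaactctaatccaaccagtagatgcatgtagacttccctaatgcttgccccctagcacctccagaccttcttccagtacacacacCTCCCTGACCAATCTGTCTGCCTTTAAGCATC
Exon 1 of the transcript that begins beyond Cav1 (chr6:17385465-17385603, minus strand) is shown as the most distant start of Gm15581.
Gm15581 exon 1: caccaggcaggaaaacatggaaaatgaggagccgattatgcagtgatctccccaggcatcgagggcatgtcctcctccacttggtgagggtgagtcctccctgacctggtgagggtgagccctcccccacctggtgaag

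Cav1 was close to absent in the Cav1-null libraries and was present in every library of the other strains. In Cav1-null mice, the 3 libraries gave 0.0704, 0 and 0.208 CPM on d12, 0, 0.193 and 0.0668 CPM on d15, and 0.255, 0.370 and 0.503 CPM on d17. C57BL/6J libraries gave 14.5, 18.6 and 10.5 CPM on d12, 19.7, 12.6 and 19.0 CPM on d15, and 33.9, 32.1 and 41.1 CPM on d17. AKR/J libraries gave 15.6, 11.1 and 9.42 CPM on d12, 24.0, 33.7 and 15.6 CPM on d15, and 31.1, 28.1 and 30.7 CPM on d17. The Cav1-null values thus lay apart from those of both other strains. C57BL/6J and AKR/J overlapped on d12 and d15, and on d17 each AKR/J library lay below the lowest C57BL/6J library, with a log2 difference of -0.24 that did not pass (SE 0.14, adjusted p = 0.318, edgeR quasi-likelihood test). Over the 3 days, the log2 difference of Cav1 between AKR/J and C57BL/6J was -0.0 (SE 0.17, adjusted p = 0.996, same test).

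The 9 Cav1-null libraries held 53 Cav1 reads in all, and 2 of them held 0, which allows up to 3 reads each. The 9 C57BL/6J libraries held 6557 Cav1 reads and the 9 AKR/J libraries 5916. After scaling, the level was 118-fold higher in C57BL/6J (95% interval 90.2 to 158) and 122-fold higher in AKR/J (93.1 to 163) than in Cav1-null mice. Of the values from 1 to 10 reads over all genes and libraries, 60.6% were even, and the sources used here do not say how the mates of a read pair were counted. If 2 reads stood for 1 fragment, the intervals would be 82 to 185 and 84.7 to 191. All such intervals cover counting error only. Of the 53 reads in Cav1-null libraries, 10 were from d12, 8 from d15 and 35 from d17.

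**Figure D1:**
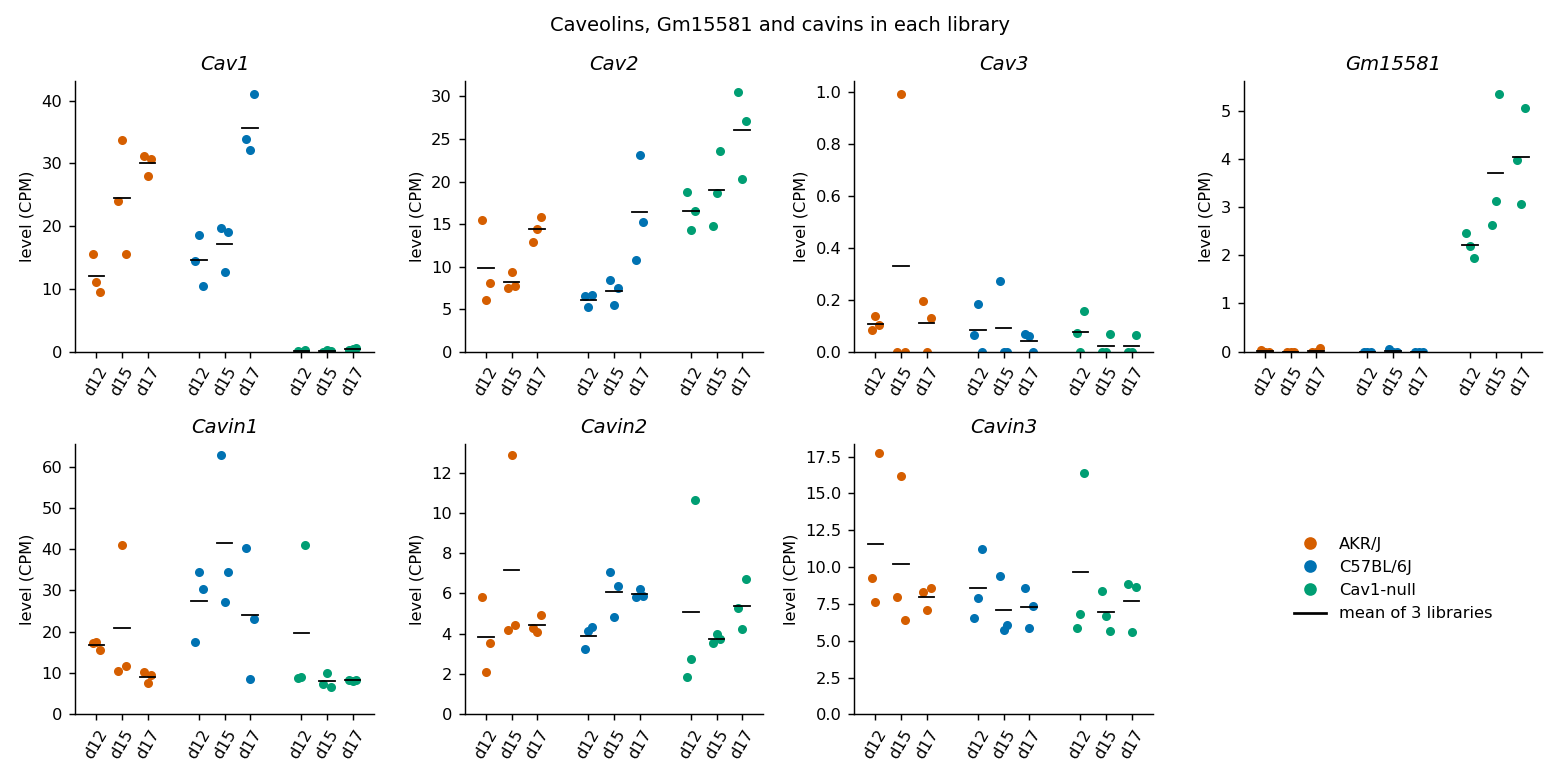
Expression of the caveolins, cavins and Gm15581 in each of the 27 libraries, in CPM by strain and gestational day, 1 point per library with the group mean as a line. Cav1 lies at or below 0.503 CPM in all Cav1-null libraries, Gm15581 lies at or above 1.95 CPM in these libraries and at or below 0.0653 CPM in all others, and Cavin1 is highest in C57BL/6J d15 replicate 1 at 62.7 CPM.

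Over the 3 days, 4 of the 6 genes tested differed between Cav1-null and C57BL/6J brains by edgeR's quasi-likelihood test at a Benjamini-Hochberg adjusted p under 0.05. They were Cav1, Cav2, Cavin1 and Gm15581, while Cavin2 and Cavin3 did not pass. In the same fit, 42.7% of all 22282 genes passed (18.5% higher and 24.2% lower), so that a call by itself was common. Cav3 had too few reads to be tested. For Cav1, the fitted log2 difference was -6.92 (SE 0.30, adjusted p = 9.48e-11). Since the strain is defined by its disrupted Cav1, this difference is a check of the labels.

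Cav2, the partner of Cav1, was higher in Cav1-null than in C57BL/6J brains. Cav1-null libraries gave 18.8, 14.3 and 16.6 CPM on d12, 14.7, 18.6 and 23.6 CPM on d15, and 30.6, 20.4 and 27.2 CPM on d17. C57BL/6J libraries gave 6.57, 5.21 and 6.61 CPM on d12, 8.40, 5.46 and 7.52 CPM on d15, and 10.7, 23.2 and 15.3 CPM on d17. The strains did not overlap on d12 and d15 and overlapped on d17, where C57BL/6J replicate 2 lay within the Cav1-null range. How many of all genes lay apart on single days was not counted.

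The log2 difference of Cav2 over the 3 days was 1.18 (SE 0.17, adjusted p = 0.000206, edgeR quasi-likelihood test), a 2.26-fold higher level. With each library left out in turn, it stayed between 1.11 and 1.33 and passed each time. Without the d15 libraries it was 1.07 and did not pass (adjusted p = 0.0559), in a fit in which 5 of 21675 genes passed. With the summed endothelial markers as a covariate it was 0.71 (adjusted p = 0.628), in a fit in which 9 of 22282 genes passed. Neither lost call is thus particular to Cav2, but the Cav2 difference itself was also smaller in both fits.

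AKR/J libraries gave 15.5, 6.02 and 8.08 CPM of Cav2 on d12, 7.45, 9.33 and 7.70 CPM on d15, and 12.9, 14.4 and 15.9 CPM on d17. These values lay below the Cav1-null values of d15 and d17 and overlapped them on d12. Cav2 was lower in AKR/J than in Cav1-null brains by a log2 difference of -0.95 (SE 0.16, adjusted p = 0.000494) over the 3 days. The AKR/J to C57BL/6J difference was 0.22 (SE 0.20, adjusted p = 0.378), which did not pass.

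Gm15581 was detected mainly in Cav1-null brains. Its libraries gave 2.46, 2.20 and 1.95 CPM on d12, 2.62, 3.12 and 5.34 CPM on d15, and 3.98, 3.06 and 5.06 CPM on d17. The highest value in another strain was 0.0653 CPM, in AKR/J d17 replicate 3. The Cav1-null libraries thus lay apart from all 18 others. Of the 16189 genes at a mean of at least 1 CPM, 0.402% had no overlap between Cav1-null and C57BL/6J libraries. The share was 1.89% of 16584 genes between AKR/J and Cav1-null libraries, and 1.42% of 16434 genes between AKR/J and C57BL/6J libraries, where every gene of the set overlapped.

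The Cav1-null libraries held 924 Gm15581 reads in all, the C57BL/6J libraries 2 and the AKR/J libraries 3, with 0 reads in 8 of 9 C57BL/6J and 7 of 9 AKR/J libraries. The scaled ratio was 484 against C57BL/6J (95% interval 134 to 4000) and 282 against AKR/J (96.1 to 1370). With 2 reads to a fragment, the intervals would widen to 86.4 to 19200 and 58.2 to 1750. The edgeR quasi-likelihood test gave an adjusted p of 3.94e-10 against C57BL/6J and of 2.86e-10 against AKR/J. Compared per kilobase of the main transcript, Gm15581 stood at 0.391 CPM per kb on d12 and 0.715 CPM per kb on d17 in Cav1-null brains. Cav2 stood at 4.74 and 7.44 CPM per kb in the same groups.

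Cavin1, the cavin that is required for caveolae to form, was lower in Cav1-null and in AKR/J brains than in C57BL/6J brains. C57BL/6J libraries gave 17.6, 34.4 and 30.4 CPM on d12, 62.7, 27.3 and 34.5 CPM on d15, and 40.4, 8.45 and 23.2 CPM on d17. Cav1-null libraries gave 8.72, 9.10 and 41.0 CPM on d12, 7.36, 9.95 and 6.58 CPM on d15, and 8.41, 7.97 and 8.36 CPM on d17. AKR/J libraries gave 17.3, 17.6 and 15.5 CPM on d12, 10.4, 41.0 and 11.6 CPM on d15, and 10.2, 7.61 and 9.64 CPM on d17.

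A single library stood far above the rest in AKR/J d15 (replicate 2) and in Cav1-null d12 (replicate 3), and a single one far below in C57BL/6J d17 (replicate 2). Cav1-null and C57BL/6J libraries were apart on d15 and overlapped on d12, and on d17 the lowest C57BL/6J library (8.45 CPM) lay just above the highest Cav1-null library (8.41 CPM). Over the 3 days, the log2 difference was -1.43 between Cav1-null and C57BL/6J brains (SE 0.37, adjusted p = 0.00445), a 2.69-fold lower level, and lay between -1.84 and -1.25 with each library left out. Without the d15 libraries it was -0.95 (adjusted p = 0.169), in the fit in which 5 genes passed in all.

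In AKR/J against C57BL/6J, Cavin1 was the only one of 5 genes tested to pass over the 3 days, against 44.0% of all genes (18.6% higher and 25.4% lower). Its log2 difference was -1.01 (SE 0.29, adjusted p = 0.00851, edgeR quasi-likelihood test), with -1.22 to -0.78 when each library was left out. Without the d17 libraries it was -0.76 and did not pass (adjusted p = 0.0807), in a fit in which 45.2% of all genes passed. The call was also lost with the summed endothelial markers as a covariate (0.14, adjusted p = 0.829) and with both the endothelial and the connective tissue sums (-0.33, adjusted p = 0.539), fits in which 1.53% and 0.662% of all genes passed. Between AKR/J and Cav1-null brains, 3 of 6 genes passed, namely Cav1, Cav2 and Gm15581, against 19.9% of all genes (8.85% higher and 11.1% lower). The Cavin1 difference there was 0.42 (SE 0.34, adjusted p = 0.41), and it was 0.81 and passed without Cav1-null d12 replicate 3 (adjusted p = 0.0386). These comparisons share their libraries, so their values are not independent of each other.

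**Figure D2:**
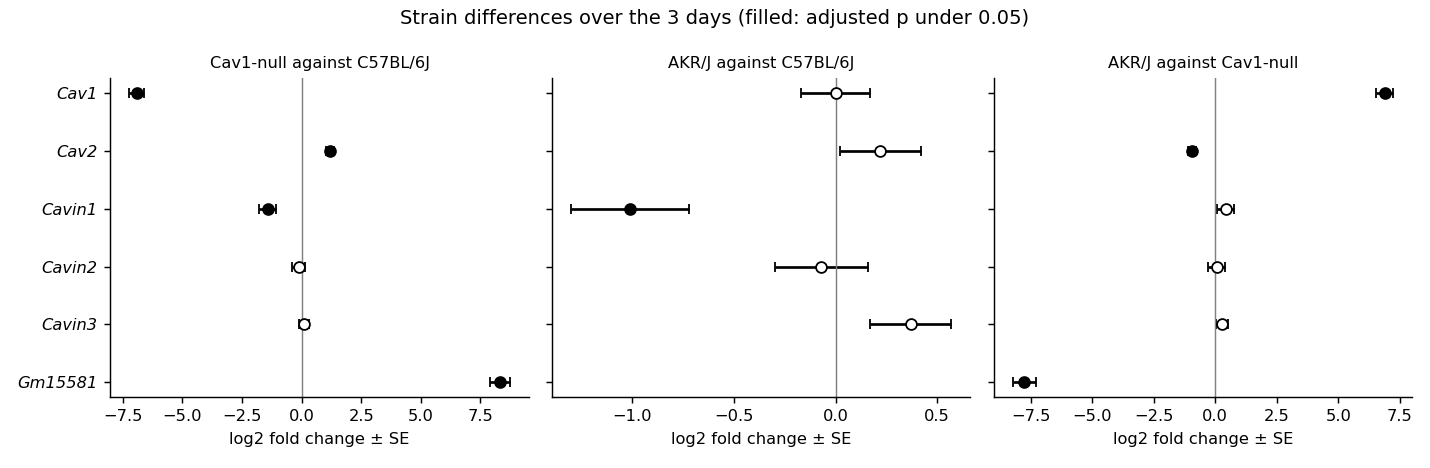
Log2 difference between strains over the 3 days for each gene tested, with its standard error as a bar, for Cav1-null against C57BL/6J, AKR/J against C57BL/6J and AKR/J against Cav1-null. Cav1 lies at -6.92, Gm15581 at 8.31, Cav2 at 1.18 and Cavin1 at -1.43 for Cav1-null against C57BL/6J, while the fitted Gm15581 value depends on the few reads of the other strain and is no estimate of its fold.

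Markers of endothelium and connective tissue were counted beside Cavin1. Of 20 endothelial markers, 14 were lower and 0 higher in Cav1-null than in C57BL/6J brains, against 24.2% lower and 18.5% higher of all genes (median log2 difference -0.85, against 0.05 over all genes). Of 16 markers of meninges and connective tissue, 8 were lower and 0 higher (median -1.33). The endothelial marker sum was 188 to 523 CPM for C57BL/6J, 142 to 292 CPM for AKR/J and 148 to 297 CPM for Cav1-null libraries. The connective tissue sum was 237 to 6059 CPM, 182 to 1765 CPM and 181 to 1526 CPM in the same order. Cdh5, an adhesion protein that defines endothelium, was lower in Cav1-null brains by a log2 difference of -2.29 (SE 0.36, adjusted p = 0.000242), and Col1a1, a fibrillar collagen, by -3.68 (SE 1.11, adjusted p = 0.0125).

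With the endothelial sum as a covariate, the Cavin1 difference between Cav1-null and C57BL/6J brains was 0.24 (adjusted p = 0.898), and with the connective tissue sum it was -0.49 (adjusted p = 0.0844). These fits called 9 and 3377 genes in all, in place of 9514. The loss of the Cavin1 call with the endothelial sum was thus shared by nearly all genes called before. The Cavin1 difference itself also moved in both fits, from -1.43 without a covariate. In the AKR/J comparison, 13 of 20 endothelial markers were lower and 0 higher, against 25.4% lower and 18.6% higher of all genes. Of 16 connective tissue markers, 5 were lower and 1 was higher there (median -0.82, against 0.01 over all genes). The one that was higher was Lum, a collagen-binding proteoglycan, at 1.38 (adjusted p = 0.0303). These counts depended on the setting, with 8 lower and 2 higher without the 3 libraries highest in muscle markers, 7 and 1 with library sizes alone, and 3 and 2 under upper quartile scaling. Fewer cells of a type and less RNA per cell cannot be told apart in RNA of a whole brain. The part of cell composition in the Cavin1 difference was not tested beyond these values.

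**Figure D3:**
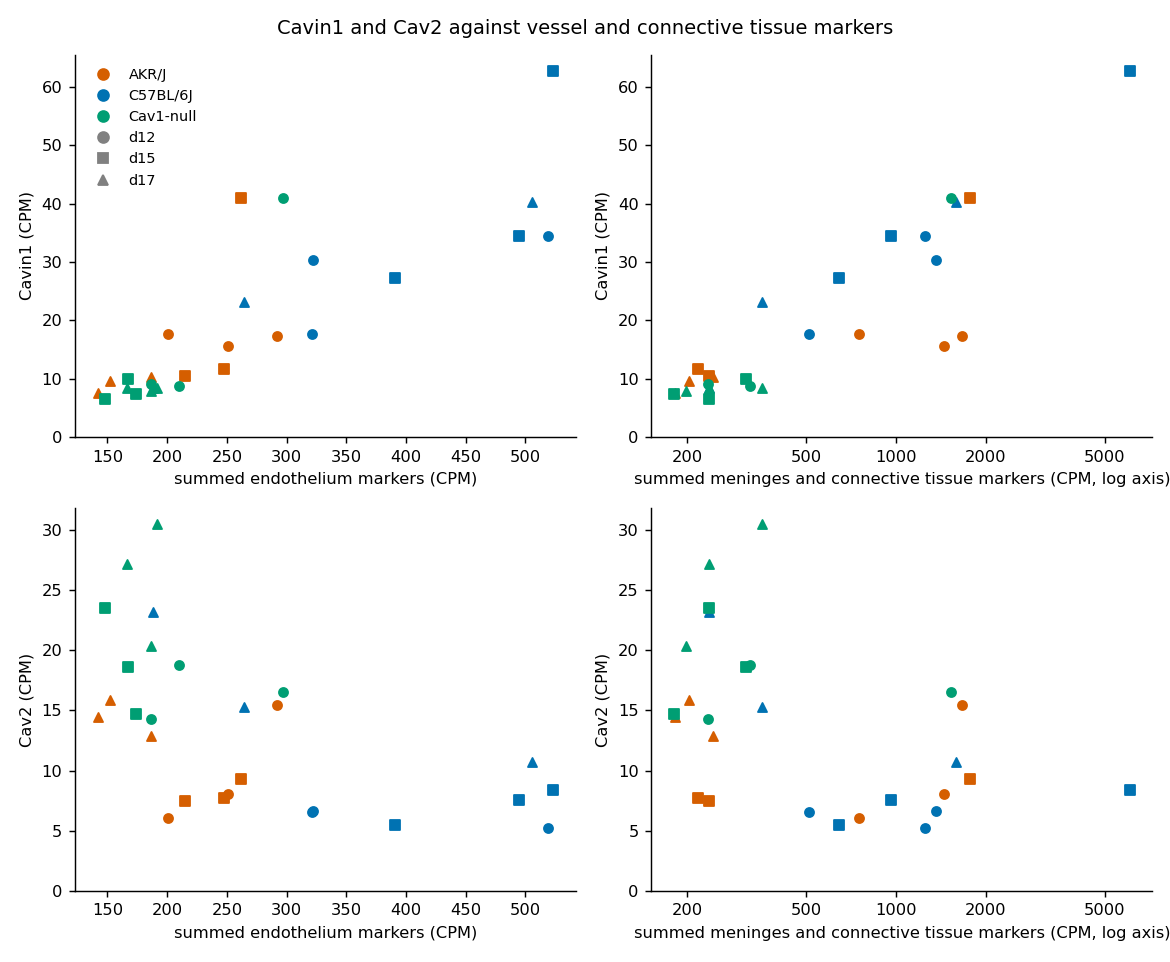
Cavin1 and Cav2 in CPM against the summed CPM of endothelial markers and of meninges and connective tissue markers (log axis), 1 point per library, coloured by strain and with a marker for the day. C57BL/6J libraries reach the highest marker sums (523 and 6059 CPM), and the library with the highest connective tissue sum also holds the highest Cavin1 level, 62.7 CPM.

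Cavin2 and Cavin3 did not differ between strains over the 3 days by the test used. Cavin2 binds phosphatidylserine and Cavin3 is the cavin that recruits protein kinase C delta. The AKR/J libraries held Cavin2 at 2.11 to 12.9 CPM (median 4.29), against 3.27 to 7.07 CPM in C57BL/6J (median 5.85) and 1.86 to 10.7 CPM in Cav1-null brains (median 3.99). Cavin3 was 6.39 to 17.8 CPM in AKR/J (median 8.31), 5.72 to 11.2 CPM in C57BL/6J (median 7.36) and 5.58 to 16.4 CPM in Cav1-null brains (median 6.84). The ranges of all 3 strains overlapped for both genes.

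The log2 difference between Cav1-null and C57BL/6J brains was -0.13 for Cavin2 (SE 0.26, adjusted p = 0.716) and 0.10 for Cavin3 (SE 0.19, adjusted p = 0.691). Cavin2 rests on 1 library, since without Cav1-null d12 replicate 3, where it stood at 10.7 CPM, the difference was -0.50 and passed (adjusted p = 0.0101). For AKR/J against C57BL/6J it was -0.07 for Cavin2 (SE 0.23, adjusted p = 0.823) and 0.37 for Cavin3 (SE 0.20, adjusted p = 0.142). For AKR/J against Cav1-null it was 0.06 for Cavin2 (SE 0.34, adjusted p = 0.926) and 0.27 for Cavin3 (SE 0.23, adjusted p = 0.435).

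Cav3, the muscle caveolin (chr6:112436466-112449833, plus strand), was at or near 0 in all libraries but 1. It had 51 reads over the AKR/J libraries, 22 over C57BL/6J and 12 over Cav1-null. Of these, 33 came from AKR/J d15 replicate 2, at 0.993 CPM. In each strain, the library with the most Cav3 reads (33, 10 and 6) had the highest sum of skeletal muscle markers, at 196, 116 and 70.0 CPM, and in Cav1-null mice that library was d12 replicate 3. That sum ranged from 19.3 to 196 CPM over all 27 libraries.

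Day by day, the same 4 genes were not called on every day, and the background differed strongly between days. On d12, 0 of 6 genes passed between Cav1-null and C57BL/6J brains, against 0.0% of 19475 genes. Of the 6, 3 were at an unadjusted p under 0.05, and the DESeq2 Wald test called 2 of them and 2044 genes in all. Cav2 differed by 1.45 (SE 0.21, adjusted p = 0.105, edgeR quasi-likelihood test) although its libraries were apart, and Cav1 by -7.12 (SE 0.67, adjusted p = 0.0789).

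On d15, 5 of 6 genes passed, against 58.6% of all genes. Cav2 differed by 1.45 (SE 0.20, adjusted p = 0.000135), Cavin1 by -2.34 (SE 0.29, adjusted p = 5.37e-05) and Cavin2 by -0.66 (SE 0.19, adjusted p = 0.0119) in the edgeR quasi-likelihood test, besides Cav1 and Gm15581. On d17, Cav1 and Gm15581 passed, 2 of 6 genes against 0.0491% of all genes. Cav1 passed with any library of that day left out (adjusted p at most 0.00354). The absence of Cav2 and Cavin1 calls on d17 rested on C57BL/6J replicate 2. This library correlated better with Cav1-null than with its own group, as replicate 3 did by a smaller margin (0.985 against 0.982). Without replicate 2, 4 of the 6 genes passed and 2865 genes in all passed instead of 10, with Cav2 at 1.06 (adjusted p = 0.0263) and Cavin1 at -1.87 (adjusted p = 0.00813). Gm15581 on d17 lost its call when C57BL/6J replicate 3 or any Cav1-null library of that day was left out (adjusted p between 0.0508 and 0.0879).

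Between AKR/J and C57BL/6J, 0 of 5 genes passed on d12, d15 or d17, against 28.6%, 41.1% and 0.742% of all genes, with 0, 0 and 1 of them at an unadjusted p under 0.05. The DESeq2 Wald test called 0, 0 and 1, and on d17 it also called more genes in all, as given below. For AKR/J and Cav1-null brains, 2, 3 and 3 of 6 genes passed on d12, d15 and d17, against 19.6%, 19.3% and 12.4%. Cav1 and Gm15581 passed on each day, and Cav2 on d15 and d17. On d12 the Cav2 difference was -0.71 (SE 0.35, adjusted p = 0.194).

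Within strains, Cav1 rose between d15 and d17 in C57BL/6J, and Cav2 rose in C57BL/6J and AKR/J. In C57BL/6J, Cav1 rose from 17.1 ± 3.90 CPM on d15 to 35.7 ± 4.73 CPM on d17, with no overlap (log2 change 1.10, SE 0.20, adjusted p = 0.0163, edgeR quasi-likelihood test). Cav2 rose from 7.13 ± 1.51 to 16.4 ± 6.29 CPM, also without overlap (1.25, SE 0.32, adjusted p = 0.0415). These were 2 of 5 genes tested, against 13.0% of all genes. Both calls were close to the threshold. Cav1 was not called after leaving out any d15 library or d17 replicate 3 (adjusted p 0.0509 to 0.0916). Cav2 was not called after leaving out any d15 library or d17 replicate 2 or 3 (0.0548 to 0.141).

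In AKR/J, Cav2 rose from 8.16 ± 1.02 CPM on d15 to 12.9, 14.4 and 15.9 CPM on d17 without overlap (0.86, SE 0.17, adjusted p = 0.00938), 1 of 5 genes against 22.1% of all genes. The call was lost without d17 replicate 2 or 3 (adjusted p = 0.0526 and 0.0608). In Cav1-null brains, Cav2 stood at 19.0 ± 4.42 CPM on d15 and 26.0 ± 5.20 CPM on d17 (0.49, SE 0.17, adjusted p = 0.0513), and Gm15581 at 3.70 ± 1.45 and 4.04 ± 1.00 CPM (0.15, SE 0.27, adjusted p = 0.73), with overlap in both. Cavin2 gave 3.52, 3.99 and 3.74 CPM on d15 and 5.26, 4.24 and 6.70 CPM on d17, without overlap (0.55, SE 0.20, adjusted p = 0.0501). How common such non-overlap was among all genes between days was not counted. There 0 of 5 genes passed, against 27.3% of all genes, with 2 at an unadjusted p under 0.05. The DESeq2 Wald test called 2, and its calls over all genes are not listed here.

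Between d12 and d15, no gene of the set passed in any strain, against 28.9% (AKR/J), 14.9% (C57BL/6J) and 23.4% (Cav1-null) of all genes. At an unadjusted p under 0.05 were 1, 1 and 2 of the 5 genes tested in each, and the DESeq2 Wald test called 1, 1 and 0. Its calls over all genes are given below for C57BL/6J only. In AKR/J, Cav1 was 12.0 ± 3.20 CPM on d12 and 24.4 ± 9.03 CPM on d15 (0.99, SE 0.33, adjusted p = 0.0531). In Cav1-null brains, Gm15581 was 2.20 ± 0.257 CPM on d12 and 3.70 ± 1.45 CPM on d15, without overlap (0.78, SE 0.31, adjusted p = 0.107).

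The change between days did not pass a test of difference between strains for any gene of the set, but some alternatives called members. Of 34 tests of the interaction of strain and day over 12 libraries, 0 passed in edgeR's quasi-likelihood test, with 4 at an unadjusted p under 0.05 and a smallest adjusted p of 0.186. Of all genes, 0.00472% passed early and 0.252% late for Cav1-null against C57BL/6J, 0.0711% and 0.00468% for AKR/J against C57BL/6J, and 14.7% and 2.13% for AKR/J against Cav1-null. The DESeq2 Wald test called 0 members in each of the 6 interactions. Without a filter on low counts, the late change differed between AKR/J and Cav1-null for Cav1 (-1.72, adjusted p = 0.0211), Cavin1 (-1.24, adjusted p = 0.00244) and Cavin2 (-1.20, adjusted p = 0.0242), against 5.12% of all genes. Without C57BL/6J d17 replicate 1, it differed between Cav1-null and C57BL/6J for Cavin1 (1.48, adjusted p = 0.0427), against 26.1% of all genes. For Cav1 between AKR/J and C57BL/6J, the difference in the late change was -0.75 (SE 0.35, adjusted p = 0.667). For Cav2 between Cav1-null and C57BL/6J, it was -0.80 (SE 0.40, adjusted p = 0.253).

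Compared per kilobase of the main transcript, the order of the genes depended on strain and day. In C57BL/6J on d15, Cavin1 led at 11.9 CPM per kb, followed by Cav1 at 6.01, Cavin3 at 2.75, Cav2 at 2.04 and Cavin2 at 0.914 CPM per kb. Of these neighbours, only Cavin3 and Cav2 overlapped between libraries. On d17 in AKR/J, Cav1 led at 10.5 CPM per kb, apart from Cav2 at 4.12 CPM per kb. On d17 in Cav1-null brains, Cav2 led at 7.44 CPM per kb, followed by Cavin3 at 3.00 and Cavin1 at 2.36, which overlapped, then Cavin2 at 0.810 and Gm15581 at 0.715, which also overlapped, and Cav1 at 0.132 CPM per kb.

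Reads across the junctions of Cav1 were few in Cav1-null libraries, as gene reads were. The junction of exons 1 and 2, whose intron was 1401 bases long, was crossed by 268 AKR/J, 290 C57BL/6J and 4 Cav1-null reads. These 4 reads came from 2 libraries of d17, with at most 2 reads in 1 library. The junction of exons 2 and 3, with an intron of 31067 bases, was crossed by 437, 364 and 7 reads. In C57BL/6J d17, 2 of 3 libraries were listed at 0 for it, although the first junction had 47 to 51 reads there. The splice table left out some reads before deposit, so a 0 in it may be a removed value.

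Cavin1 (ENSMUSG00000004044; chr11:100847559-100861713, minus strand) has 1 intron in its main transcript, chr11:100850152-100860815, of 10664 bases. Its spliced bases are shown in the direction of transcription, with exon 2 in capitals.
Cavin1 exon 1 to exon 2: gtcatgatctaccagGATGAAGTCAAGCTG
This junction was crossed by 152 AKR/J, 415 C57BL/6J and 123 Cav1-null reads.
Of 44297 junctions tested, 16.6% differed between Cav1-null and C57BL/6J brains over the 3 days. All 3 junctions were among them, with log2 differences of -5.80 (SE 0.51, adjusted p = 0.000263, edgeR quasi-likelihood test) and -5.30 (SE 1.08, adjusted p = 0.00656) for Cav1 and -1.41 (SE 0.46, adjusted p = 0.0478) for Cavin1. Without a filter on low counts, the Cavin1 junction no longer passed (adjusted p = 0.0568). In AKR/J brains against C57BL/6J, 0 of the 3 passed, against 17.7% of junctions, with 1 at an unadjusted p under 0.05, and the Cavin1 junction was at -1.11 (SE 0.43, adjusted p = 0.0857). It was at -1.44 and passed with the library sizes of the gene table (adjusted p = 0.0256).

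**Figure D4:**
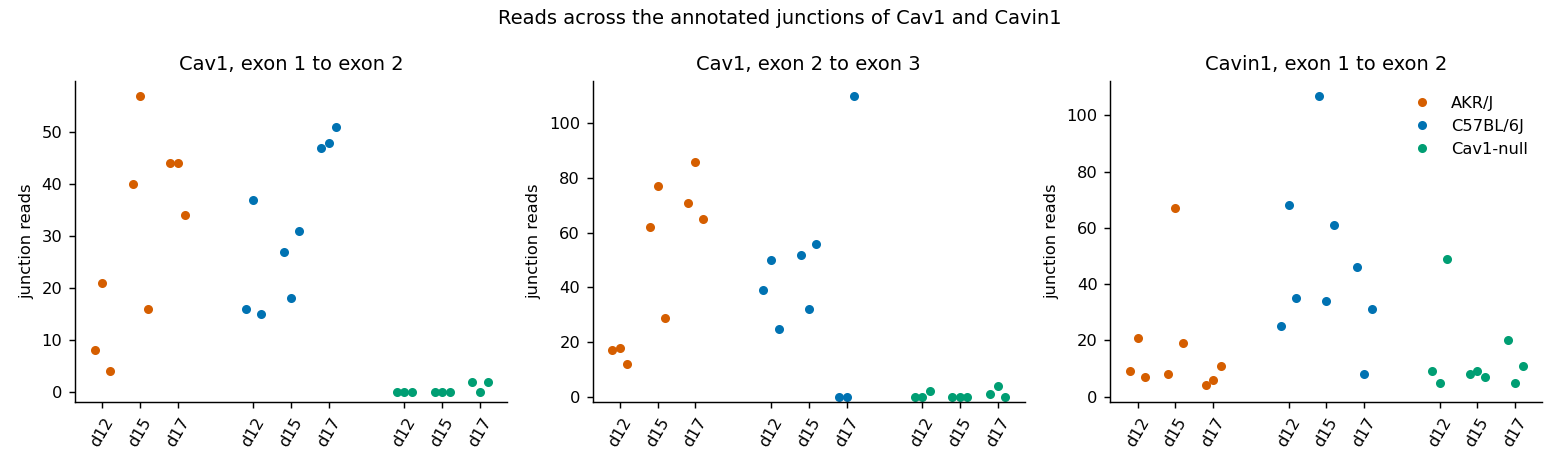
Reads across the 2 annotated junctions of Cav1 and the junction of Cavin1 in each of the 27 libraries, by strain and day. Cav1-null libraries hold at most 2 and 4 reads of the Cav1 junctions, and C57BL/6J d15 holds the highest Cavin1 value at 107 reads.

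Genes around Cav1 on chromosome 6 were compared between strains to place Cav2 and Gm15581 among their neighbours. Of 9 neighbours tested, 2 were higher and 1 was lower in Cav1-null than in C57BL/6J brains over the 3 days, against 18.5% and 24.2% of all genes. These counts depended on the scaling, with 6 higher and 0 lower under upper quartile scaling, 5 and 0 with library sizes alone, 2 and 0 with RLE size factors, and 0 and 0 with both marker sums as covariates, a fit in which 8 genes passed in all. Capza2, an actin capping subunit 330 kb beyond the Cav1 start, was higher by 0.55 (SE 0.11, adjusted p = 0.00107), and Cftr, a chloride channel 865 kb beyond it, by 0.79 (SE 0.29, adjusted p = 0.0346). Met, the receptor of hepatocyte growth factor 158 kb beyond it, was lower (-0.61, SE 0.24, adjusted p = 0.046), a call that was lost under each of these other settings. Tfec at 0.70, Tes at 0.22, Cttnbp2 at 0.21, St7 at 0.09, Mdfic at -0.19 and Wnt2 at -0.30 did not pass, and Asz1 had too few reads to be tested. In AKR/J against C57BL/6J, 3 of 9 were higher and 0 lower, namely Capza2 at 0.79 (SE 0.17, adjusted p = 0.00111), Tfec at 1.60 (SE 0.42, adjusted p = 0.00448) and Tes at 0.28 (SE 0.10, adjusted p = 0.026). The 6 others lay between -0.65 and 0.71.

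**Figure D5:**
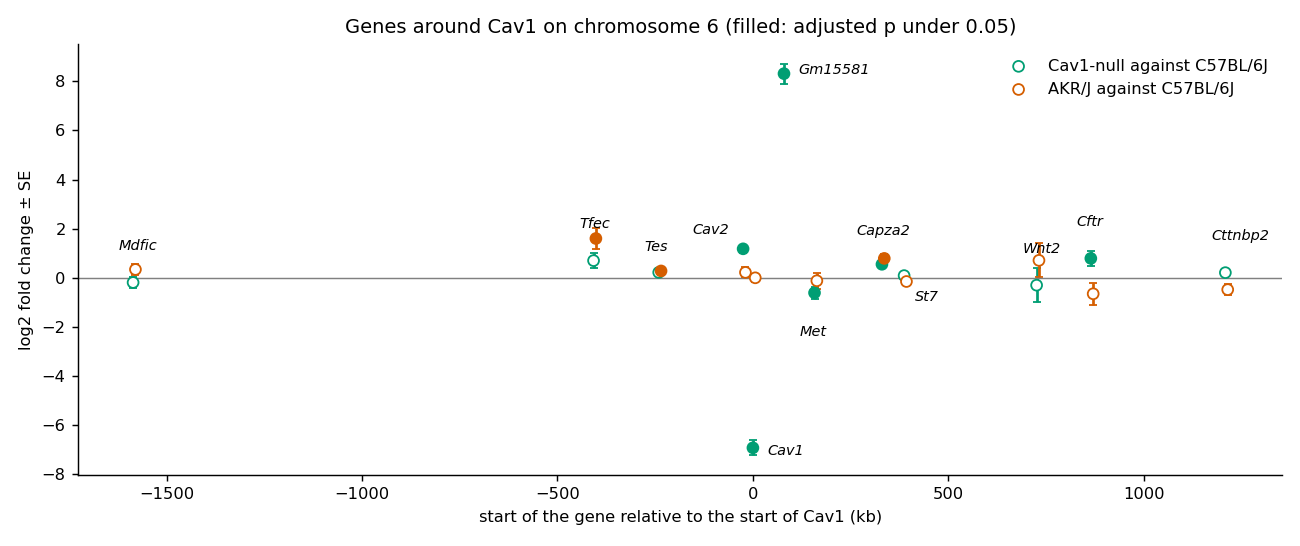
Log2 difference from C57BL/6J over the 3 days, with its standard error, for genes around Cav1 by the distance of their start from that of Cav1 in kb, for Cav1-null and AKR/J brains. Cav1 at -6.92 and Gm15581 at 8.31 stand apart from the neighbours, which in Cav1-null brains lie between -0.61 and 0.79 apart from Cav2 at 1.18, and filled points passed the test.

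A list of 21 genes named as accessory to or regulators of caveolae was counted. It takes in several members of the Dnm, Ehd, Flot and Pacsin families, such as Dnm1, Dnm3 and Pacsin1, so its counts are not specific to caveolae. Of the 21, 17 were lower and 1 was higher in Cav1-null than in C57BL/6J brains, against 24.2% and 18.5% of all genes (median log2 difference -0.64, against 0.05 over all genes). Plvap, which forms the diaphragm of endothelial caveolae, was 0.935 to 4.55 CPM in Cav1-null libraries and 3.06 to 12.6 CPM in C57BL/6J libraries (log2 difference -1.34, SE 0.25, adjusted p = 0.000537). Ehd2, an ATPase at the caveolar neck, was 2.68 to 13.3 CPM against 2.68 to 21.9 CPM (-1.24, adjusted p = 0.00257). Nos3, the endothelial nitric oxide synthase bound by Cav1, was lower at -0.64, and so was Mfsd2a, a lipid transporter of brain endothelium, at -0.89. Fnbp1l, a curvature-sensing adaptor, was higher by 0.32 (SE 0.07, adjusted p = 0.00229). Cavin4, the muscle cavin, was at 0.17 and did not pass.

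Without the 3 libraries highest in muscle markers, the counts were still 17 lower and 1 higher. With both marker sums as covariates, 0 of 21 passed (median -0.04), but only 8 of 22282 genes passed in that fit. In AKR/J against C57BL/6J, 15 were lower and 1 higher, against 25.4% and 18.6% of all genes (median -0.52, against 0.01 over all genes). Here 0 of 21 passed with both marker sums as covariates (median -0.26), in a fit in which 148 of 22353 genes passed. The largest fall and rise were Pacsin1 at -1.36 (SE 0.25, adjusted p = 0.000371) and Cd36, a fatty acid transporter, at 0.90 (SE 0.29, adjusted p = 0.0183). In AKR/J against Cav1-null, 4 were lower and 3 higher (median 0.02), against 11.1% and 8.85% of all genes.

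The genes most like each member across libraries were named by Pearson's r of log2(CPM + 1), as a description. For Cav1, over the 18 AKR/J and C57BL/6J libraries, they were Slc26a7 (r = 0.942), Styk1 (0.927), Itgbl1 (0.914), Fgfbp1 (0.911) and Rgs11 (0.906). For Cav2 over all 27 libraries, they were Slc30a4 (0.895), Tmem106b (0.867), Rian (0.863), Gm15446 (0.859) and Scoc (0.855). Cavin1 was most like Sparc (0.945), Gsn (0.943), Ehd2 (0.942), Tgfbr2 (0.937) and Loxl1 (0.937). Cavin2 was most like Enpep (0.851) and Prss35 (0.844), and Cavin3 most like Gstm2 (0.877) and Itm2a (0.86).

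These values share libraries, day and tissue makeup, and of the 5 genes for each member at most 2 were also in its first 5 by Spearman's rho, and by deviations from the group means 0 of 5 were for Cav1 and Cav2, 2 for Cavin1 and 1 each for Cavin2 and Cavin3. Among the members, r was 0.672 for Cav1 and Cav2 over the 18 libraries, 0.521 for Cavin1 and Cavin2, 0.44 for Cavin1 and Cavin3, and -0.604 for Cavin1 and Cav2. For deviations from the group means, r was 0.332, 0.721, 0.744 and -0.145 for the same pairs. Cavin1 correlated with Cdh5 at 0.872 and with Col1a1 at 0.924. The same values were -0.345 and -0.326 for Cav1, -0.723 and -0.532 for Cav2, 0.22 and 0.399 for Cavin2, and 0.172 and 0.479 for Cavin3. For deviations from the group means they were 0.692 and 0.92 for Cavin1, 0.243 and 0.389 for Cav1, where the sign turned, -0.268 and -0.042 for Cav2, 0.318 and 0.616 for Cavin2, and 0.451 and 0.717 for Cavin3.

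In the RefSeq promoter windows (250 bases before to 50 after a start, GRCm38.p6), 7 windows of 5 members were found. Letters were searched on both strands. The Cav2 window held GGGCGG 2 times and CCAAT 1 time at 64.3% G and C, and the first Cav1 window held GGGCGG 2 times and TATAAA 1 time at 59.3%. Both Cavin1 windows, which overlap, held GGGCGG and CCAAT 1 time each, and the Cavin2 window CCAAT 1 time. Of all 32851 windows, 35.7% held GGGCGG, 37.4% CCAAT and 13.6% TATAAA.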

How the data were processed

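RNA of whole fetal brain was sequenced after poly-A selection in 27 libraries. The authors checked reads with FastQC, trimmed them with cutadapt and fastp and mapped them to GRCm39 with STAR. The deposited gene table holds raw read counts per Ensembl gene, and the deposited splice table holds read counts per junction from 2-pass mapping, from which the authors removed junctions with multi-mapped reads, short overhangs or few reads. The counting tool, its handling of mates and strands, and tool versions are not given in the sources used here. Depth was 26363697 to 39759702 gene reads per library (median 29700746).

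Groups follow the labels' strain and day. Genes were filtered with filterByExpr, scaled by TMM and tested with edgeR 4.0.16 (quasi-likelihood test, R 4.3.3), with calls at an adjusted p under 0.05 after Benjamini-Hochberg correction over all genes. The SE was obtained by dividing the log2 fold change by the root of F. Day comparisons used 6 libraries, strain comparisons over the 3 days 18 and interactions 12. The scripts were tested on simulated data. Tables were made with Python 3.11.15, numpy 2.4.6, pandas 2.3.3 and scipy 1.17.1, and plots with matplotlib 3.10.9. Transcripts are from GENCODE M39. The 95% intervals of read ratios are conditional binomial.

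The members and all gene lists were chosen with earlier results of these data known. Named genes were all members and, per list and comparison, the called gene with the largest rise and fall, the neighbours of Cav1, and the 5 genes most correlated with each member (mean of at least 1 CPM). Ehd2, Nos3, Mfsd2a and Cavin4 were named after their values were seen. Alternatives were the DESeq2 1.42.0 Wald test, RLE, upper quartile and unscaled library sizes, no filter or a minimum of 10 reads throughout, a single model for the 27 libraries, a replicate block, the endothelial or connective tissue marker sum as a covariate, and each day and each library left out. Both marker sums together and leaving out the 3 libraries highest in muscle markers were added after seeing the data. Same-numbered libraries were not paired.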

Additional observations from a re-analysis of the deposited data

How the results depend on the processing

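Over the 3 days, the Cav2 and Cavin1 calls between Cav1-null and C57BL/6J were lost without the d15 libraries. Both were also lost with the endothelial sum or both marker sums as covariates, and the Cavin1 call with the connective tissue sum as well. The Cavin1 call between AKR/J and C57BL/6J was lost without d17 and with the endothelial or both sums. Several of these fits called few genes at all. Between Cav1-null and C57BL/6J, 5 genes passed without d15, 9 with the endothelial sum, 8 with both and 3377 with the connective tissue sum, in place of 9514. For AKR/J against C57BL/6J, 342 passed with the endothelial sum and 148 with both, in place of 9837. Without d17, 9540 genes passed there. Log2 differences are given. Between Cav1-null and C57BL/6J, Cav2 was 1.07 without d15 (adjusted p = 0.0559, edgeR quasi-likelihood test), 0.71 with the endothelial sum as a covariate and 0.55 with both sums (added after seeing the data), and Cavin1 was -0.95, 0.24 and -0.094, and -0.49 with the connective tissue sum. Cavin2 was 0.016 with upper quartile scaling, 0.16 without d15, 0.29, 0.47 and 0.15 with connective, endothelial and both sums, and Cavin3 -0.002 without the 3 libraries highest in muscle markers. For AKR/J against C57BL/6J, Cav1 was 0.052 with DESeq2 and with RLE, 0.16 with upper quartile scaling, 0.071 with at least 10 reads, 0.16 without d12, 0.21 without d17, and 0.058, 0.18 and 0.12 with the 3 covariates. Cav2 was -0.12 with both sums. Cavin1 was -0.76 without d17, 0.14 with the endothelial sum and -0.33 with both, and Cavin2 0.085, 0.001, 0.19, 0.087 and 0.18 with upper quartile scaling, at least 10 reads, without d17 and with connective and endothelial sums. For AKR/J against Cav1-null, Cavin1 was -0.064 without d15, Cavin2 -0.12 with library sizes alone, -0.37 without d15, and -0.32, -0.26 and -0.37 with the 3 covariates, and Cavin3 -0.006 with the connective sum and -0.008 with both. The first Cav1 junction was -0.07 between AKR/J and C57BL/6J with gene-table library sizes. Between days, library sizes alone gave 0.24 for Cav2 and 0.34 for Cavin3 in AKR/J from d12 to d15, where they moved the median of all genes by 0.46, and 1 model of 27 libraries gave -0.04 for Cavin2 in C57BL/6J from d15 to d17. The cause was not tested.

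Calls over all genes moved with the setting too, so a shift cannot be assigned to the members where no such count is given. With library sizes alone, 4802 genes passed in place of 5758 in AKR/J from d12 to d15. In Cav1-null from d15 to d17, 5338 passed with them and 5480 with upper quartile scaling, in place of 5530. For AKR/J against C57BL/6J over the 3 days, 10035 passed with upper quartile scaling and 9948 with the connective sum, in place of 9837. The number of members called moved as follows. From d12 to d15 it was 1 in AKR/J with DESeq2, library sizes alone, no filter, at least 10 reads and 1 model, 1 in C57BL/6J with DESeq2 and 1 in Cav1-null without a filter. From d15 to d17 it was 2 in AKR/J without a filter and 0 with 1 model, and in Cav1-null 2 with DESeq2, library sizes alone, no filter and at least 10 reads, and 1 with upper quartile scaling. Between Cav1-null and C57BL/6J it was 2 over the 3 days with at least 10 reads, without d15, with the endothelial and with both sums, on d12 2 with DESeq2 and 3 without a filter and with 1 model, on d15 3 and on d17 0 with at least 10 reads. For AKR/J against C57BL/6J it was 2 with upper quartile scaling and the connective sum, 0 without d17 and with the endothelial and both sums, and on d17 1 with DESeq2 and without a filter. For AKR/J against Cav1-null it was 1 over the 3 days, 0 on d12 and 1 on d15 and d17 with at least 10 reads, and 3 in the late interaction without a filter. Over all genes, the DESeq2 Wald test called 4893 in place of 2850 in C57BL/6J from d12 to d15, 4581 in place of 2594 from d15 to d17, 48 in place of 10 between Cav1-null and C57BL/6J on d17, and 1330 in place of 150 for AKR/J against C57BL/6J on d17. The filter of at least 10 reads removes Cav1 and Gm15581 from comparisons with Cav1-null by construction.

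With each library left out, members called ranged from 0 to 1 (AKR/J early, Cav1-null early, AKR/J against C57BL/6J on each day, Cav1-null against C57BL/6J late interaction), 0 to 2 (AKR/J, C57BL/6J and Cav1-null late), 0 to 3 on d12 and 1 to 4 on d17 (Cav1-null against C57BL/6J). From d12 to d15, AKR/J values ranged from -0.59 to 0.20 for Cav2, -0.64 to 0.64 for Cavin1 and -0.71 to 0.25 for Cavin3, and Cav1-null values from -0.86 to 0.75 for Cavin2 and -0.77 to 0.17 for Cavin3. From d15 to d17 they ranged from -0.95 to 0.11 for Cavin2 and -0.59 to 0.22 for Cavin3 in AKR/J, -0.14 to 0.13 and -0.062 to 0.33 in C57BL/6J, and -0.037 to 0.27 for Cavin1 and -0.041 to 0.53 for Gm15581 in Cav1-null. Over the 3 days they ranged from -0.081 to 0.19 for Cavin3 between Cav1-null and C57BL/6J, -0.074 to 0.13 for Cav1 and -0.26 to 0.039 for Cavin2 between AKR/J and C57BL/6J, and -0.23 to 0.42 for Cavin2 between AKR/J and Cav1-null.

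Same-numbered samples shared no animal or batch in the labels, and none of 15 pairs of groups had every same-numbered pair correlated over 0.1 (-0.5 to 0.434), so the samples were not paired. With a replicate block, the genes called in C57BL/6J from d12 to d15 went from 2850 to 0, and those for AKR/J against C57BL/6J from 150 to 638 on d17 and from 5529 to 6566 on d12. In the other comparisons the block did not raise the number of genes called. The members called from d15 to d17 in Cav1-null went from 0 to 1 and between Cav1-null and C57BL/6J on d17 from 2 to 1, and Cavin1 in AKR/J and Cavin2 in Cav1-null from d12 to d15 were at -0.016 and 0.004. Cav3 could not be tested at this depth in the fits with a filter.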

Other observations

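Other marker lists were counted beside the caveolar genes. Of all genes, 24.2% were lower and 18.5% higher in Cav1-null than in C57BL/6J brains, and 25.4% and 18.6% in AKR/J brains, and the counts are read against these shares. Between Cav1-null and C57BL/6J brains over the 3 days, 8 of 15 mural cell markers were lower and 2 higher in the edgeR quasi-likelihood test, among them Anpep at a log2 difference of -1.58 and Higd1b at 1.43. Of 12 neural markers, 5 were lower and 4 higher, with Nes, a progenitor intermediate filament, at -1.60 and Fabp7, a radial glia fatty acid binding protein, at 0.84. Of 10 cartilage markers 1 was lower, of 9 epidermal markers 1 was lower, of 12 erythroid markers 1 was higher, and 0 of 15 skeletal muscle and 0 of 5 trophoblast and decidua markers passed. In AKR/J against C57BL/6J, 8 of 15 mural cell markers were lower and 0 higher (median -0.67, against 0.01 over all genes), with Cspg4, a pericyte proteoglycan, at -1.58. Of 12 neural markers, 5 were lower and 1 higher, 4 of 10 epidermal and 2 of 15 skeletal muscle markers were higher and 0 lower, and 0 of 10 cartilage markers passed. The epidermal count depended on the setting, with 2 higher with library sizes alone and 2 without the 3 libraries highest in muscle markers. For skeletal muscle, 3 were higher under upper quartile scaling and 4 without those 3 libraries. In the same comparison, 9 of 12 erythroid markers were higher and 1 lower, and 3 of 8 trophoblast and decidua markers were higher, with Prl8a2, a placental prolactin, at 7.93 (SE 1.45, adjusted p = 0.000743). The trophoblast and decidua result came from d12, with 4 markers higher on d12 and 0 on d15 and d17. Their AKR/J sum was 768, 82.7 and 37.9 CPM on d12, and 0.819 to 11.4 CPM and 3.11 to 8.43 CPM on d15 and d17. The C57BL/6J sum was 1.19, 2.74 and 55.7 CPM on d12, so the strains overlapped, and 2.73 to 7.99 CPM and 3.51 to 5.23 CPM on d15 and d17.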
